A study of Mus musculus with 2 samples.

Results

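Expression of 10 genes that carry, respond to or restrain fibroblast growth factor (FGF) signalling through the kinase ERK was compared between 2 single cells of the mouse eye. The genes are Fgf15, Fgfr2, Etv4, Etv5, Spry1, Spry2, Spry4, Spred1, Spred2 and Dusp6, and a probe set was taken as theirs where its only gene symbol in the array's annotation was one of these names. They are 10 of 18194 named genes on the array and are read by 30 of its 45101 probe sets. The names were picked from FGF pathway genes with the signals of these same 2 cells known, so the values below are a description.

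One cell came from a retina of the albino outbred strain CD1 on the day of birth (postnatal day 0, P0) and the other from a CD1 retina 12.5 days into embryonic life (E12.5). Below, "at P0" and "at E12.5" refer to these 2 cells. The labels name no transgene or treatment for either. Both retinas were dissociated with papain, and each cell's cDNA was amplified by 35 cycles of PCR and hybridised to 1 Affymetrix mouse expression array. The submitters assigned both cells to the ciliary body, at the rim of the optic cup, from their expression after the arrays had been read. Each age is represented by 1 cell without a replicate: every difference is between these 2 cells, with no p-value, and stage cannot be told apart from differences between single cells of 1 stage.

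An FGF ligand binds a receptor tyrosine kinase on the cell surface, which activates Ras, Raf, MEK and finally ERK inside the cell. ERK activity raises transcription of the ETS factor genes Etv4 and Etv5 and of a set of inhibitors that act back on the cascade, namely the Sprouty and Spred proteins upstream and the phosphatase Dusp6 on ERK itself. In the optic cup FGF signalling favours neural retina over pigment epithelium, and Etv, Spry and Dusp6 transcripts are widely used as its readout.

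Values are MAS5 signals, which are linear intensities for a probe set after the array has been scaled on its own. Each array's limit was set at the 99th percentile of 174 probe sets for genes not known to act in eye tissue, such as olfactory receptors, and it was a signal of 350 at P0 and 260 at E12.5. A gene was called higher in a cell when it was above that cell's limit and differed by a factor of at least 4 after signals below a limit had been raised to it. A fold against a signal below its limit is written "at least". The P0 limit was the higher. A gene detected in 1 cell alone therefore needed more signal for a call at E12.5 than at P0. A gene below the limit was not detected, which does not show that it was absent, since a transcript can be lost when 1 cell is reverse transcribed. Different probe sets of a gene, where 974 genes had several above both limits, had log2 ratios that varied around their gene's mean. The SD was 0.83, a factor of 1.78. This is a spread between probe sets, leaves out those below a limit in either cell and contains no variation between cells. No probe set of the FGF genes named at the start was above both limits, so the SD does not give the error of their ratios.

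Of the 10 genes 7 were above the limit in 1 cell, 3 (Spry2, Spry4 and Spred2) in neither and none in both. This takes for each gene the probe set whose log2 signals had the highest mean. By it 5 of 10 genes were above the limit at P0, where 28.3% of all named genes were. At E12.5 2 of 10 were, where 30.2% of all named genes were. Of all named genes 18.6% were above it in both cells, which makes up 46.7% of those above it in at least 1. Called higher at P0 were 5 of 10 genes (Etv4, Etv5, Spry1, Spred1 and Dusp6), beside 9.22% of all named genes. At E12.5 2 of 10 (Fgf15 and Fgfr2) were called higher, beside 7.30% of all named genes. These are the 7 genes above a limit, and of all named genes above a limit in at least 1 cell 41.4% were called. By this rule the ERK targets and the detected inhibitors lay at P0, and the ligand and the receptor at E12.5.

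Each gene was also taken by the probe set with the highest signal in either cell, a choice made after the values had been seen, because for Spry2 and Spred2 the rule picks a dim probe set over a bright one. Then 6 genes were above the limit at P0 (28.3% of all genes) and 3 at E12.5 (30.2%), again with none in both (17.8%). The calls were 5 higher at P0 (10.0% of all genes) and 3 higher at E12.5 (8.12%), Spred2 being the added gene. Over all 30 probe sets, 12 were above the P0 limit (22.3% of probe sets with 1 symbol) and 4 above the E12.5 limit (24.0%). None was above both (13.9%), 9 were called higher at P0 (7.20%) and 3 at E12.5 (5.68%). Probe sets of one gene share a single amplified cDNA and are not independent.

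**Figure D1:**
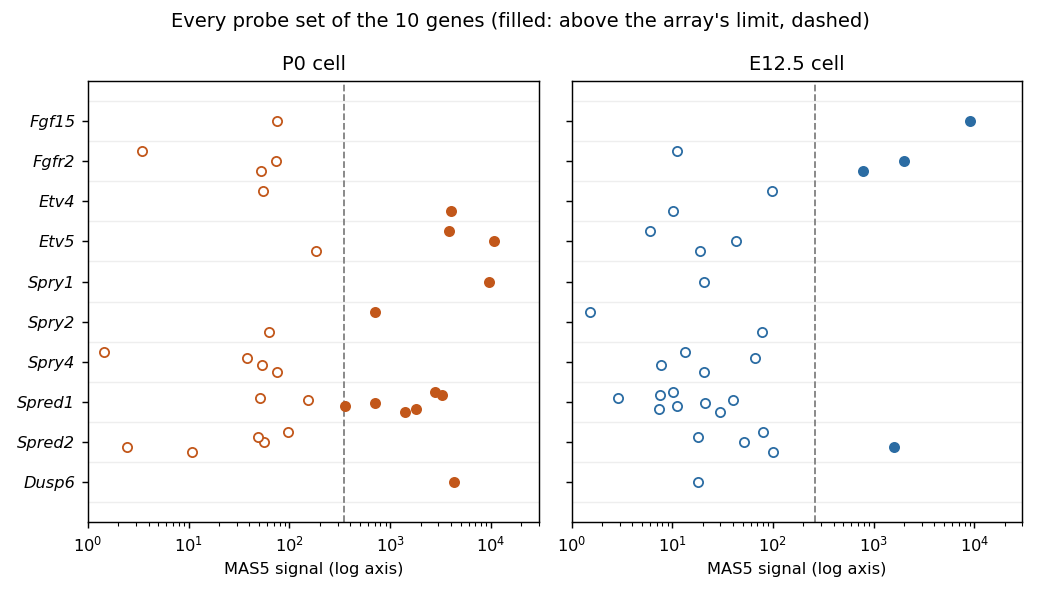
MAS5 signal (log axis) of each of the 30 probe sets of the 10 genes at P0 (left) and at E12.5 (right); dashed lines are the limits of 350 and 260, and filled points lie above them. Filled points for Etv4, Etv5, Spry1, Spry2, Spred1 and Dusp6 occur at P0, and those for Fgf15, Fgfr2 and Spred2 at E12.5.

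The sequences before the gene starts are shown for 4 of these genes. They are Dusp6 and Spred1 (called higher at P0), Fgfr2 (called higher at E12.5) and Spred2 (not called as reported). Among the genes whose search is reported, they are those whose promoter holds a letter run bound by ETS factors. The search is reported for 7 of the 10 genes, with 8 starts. It used the 250 bases upstream of each start from RefSeq on GRCm38.p6. Each is written 5′ to 3′ along the gene, and capitals mark AGGAAG or CGGAAG on either strand, which as CTTCCT or CTTCCG are the same runs read on the other strand.
Dusp6, chr10:99262981-99263230, plus strand: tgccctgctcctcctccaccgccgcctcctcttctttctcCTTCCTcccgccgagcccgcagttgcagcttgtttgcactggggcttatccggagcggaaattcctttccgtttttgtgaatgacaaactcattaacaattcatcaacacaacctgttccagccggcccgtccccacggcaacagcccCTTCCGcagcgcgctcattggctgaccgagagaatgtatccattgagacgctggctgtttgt
Spred1, chr2:117120821-117121070, plus strand: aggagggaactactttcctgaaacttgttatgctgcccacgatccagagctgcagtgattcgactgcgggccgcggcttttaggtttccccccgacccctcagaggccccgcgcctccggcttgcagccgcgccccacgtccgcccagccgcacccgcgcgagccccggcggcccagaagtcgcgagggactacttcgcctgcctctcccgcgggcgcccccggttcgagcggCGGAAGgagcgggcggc
Fgfr2, chr7:130266809-130267058, minus strand: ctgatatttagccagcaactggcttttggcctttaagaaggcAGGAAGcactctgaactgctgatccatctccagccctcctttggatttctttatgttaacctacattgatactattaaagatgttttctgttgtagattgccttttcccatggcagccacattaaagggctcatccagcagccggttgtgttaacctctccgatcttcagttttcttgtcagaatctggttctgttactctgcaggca
Spred2, chr11:19924192-19924441, plus strand: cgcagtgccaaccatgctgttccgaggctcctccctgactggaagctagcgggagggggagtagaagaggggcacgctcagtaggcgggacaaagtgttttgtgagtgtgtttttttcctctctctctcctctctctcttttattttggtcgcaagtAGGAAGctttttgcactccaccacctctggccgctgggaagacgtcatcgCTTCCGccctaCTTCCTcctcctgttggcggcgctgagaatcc

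Of the 8 starts, 4 had AGGAAG or CGGAAG, as did 39.2% of 32851 mouse promoter windows of this length. AGGAAG alone was in 3 of the 8 windows and in 29.5% of all, and CGGAAG was in 3 of the 8 and in 13.6% of all. Dusp6 had 1 of each, at 210 and 62 bases before the start, counted to the leftmost letter, and Spred1 had 1 CGGAAG at 17 bases. Spred2 had 3 runs within 93 bases of the start. Neither window of Etv5, nor those of Spry1 and Spry2, held either run. No window of Fgf15, Etv4 or Spry4 was searched, so nothing is said of their promoters. TGANTCA, the letters bound by AP-1, where N is any base, was in 0 of the 8 windows and in 6.75% of all. These are matches of letters in a short window, and no binding was measured.

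Fgf15 encodes a secreted FGF of the mouse, the counterpart of human FGF19, and is a known transcript of embryonic retinal progenitors. Its only probe set had a signal of 75.7 at P0 and 9026 at E12.5. Fgf15 was thus below the limit at P0 and at least 25.8-fold higher at E12.5.

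Fgfr2 encodes one of the receptor tyrosine kinases for FGFs, and its 3 probe sets all had the lower signal at P0. The reported probe set had a signal of 72.7 at P0 and 2013 at E12.5, at least 5.76-fold higher at E12.5. A second had 52.5 at P0 and 783 at E12.5, at least 2.24-fold higher there and short of the 4-fold needed for a call. The third was below the limit in both cells, with 3.43 at P0 and 11.0 at E12.5. Fgf15 and Fgfr2 transcripts were therefore both detected at E12.5 and neither was at P0.

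Etv4 and Etv5 encode transcription factors of the PEA3 group of the ETS family, which act downstream of FGF receptors. Etv5 had signals of 10670 at P0 and 42.7 at E12.5, at least 41.1-fold higher at P0. A second Etv5 probe set had 3845 at P0 and 5.95 at E12.5, at least 14.8-fold higher. The third, with 184 at P0 and 18.7 at E12.5, was below both limits.

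Etv4 had signals of 3991 at P0 and 10.3 at E12.5, at least 15.4-fold higher at P0. Its other probe set was below the limit in both cells, with 55.1 at P0 and 97.2 at E12.5, so the call rests on 1 probe set. With the mean over the probe sets of a gene Etv4 was no longer called, at a log2 ratio of 0.85.

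The genes of the Sprouty proteins, which block the activation of Ras and Raf by receptor tyrosine kinases, were not alike in these cells. Spry1 had a signal of 9514 at P0 and 20.7 at E12.5, at least 36.6-fold higher at P0. Spry1 is read by 1 probe set. Spry2 had 714 at P0 and 1.51 at E12.5 on one probe set, which was at least 2.75-fold higher at P0 and fell short of a call. On its other probe set, the one the rule picks, Spry2 was below both limits, with 62.5 at P0 and 77.7 at E12.5.

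Spry4 was detected in neither cell. Its 4 probe sets had signals between 1.42 and 74.9 at P0 and between 7.78 and 66.0 at E12.5. Below the limits, 2 of them were higher at P0 and 2 at E12.5.

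Spred1 and Spred2 encode membrane-associated relatives of the Sproutys that recruit the Ras-inactivating protein neurofibromin. All 8 probe sets of Spred1 had the higher signal at P0, between 50.9 and 3279 there and between 2.89 and 40.6 at E12.5, and 6 of them were above the P0 limit. The reported probe set of Spred1 had 1402 at P0 and 29.5 at E12.5, at least 5.40-fold higher at P0, and the brightest had 3279 at P0 and 7.62 at E12.5, at least 12.6-fold higher. In all, 4 of the 8 were called higher at P0 and none at E12.5.

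Spred2 was above a limit on 1 of its 5 probe sets, with a signal of 2.46 at P0 and 1583 at E12.5, at least 4.53-fold higher at E12.5. The other 4 were below both limits, between 10.7 and 97.4 at P0 and between 17.8 and 101 at E12.5. The probe set that the rule picks for Spred2 was among these 4, with 97.4 at P0 and 79.1 at E12.5. The detection of Spred2 therefore depends on a single probe set chosen after its value was seen.

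Dusp6 encodes a cytoplasmic phosphatase that inactivates ERK and whose own transcription follows ERK activity. Its only probe set had a signal of 4303 at P0 and 17.9 at E12.5, at least 16.6-fold higher at P0. The bounds of Etv4, Etv5, Spry1 and Dusp6 are all set against E12.5 signals below the limit, so their order follows the P0 signals and is no order of folds.

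**Figure D2:**
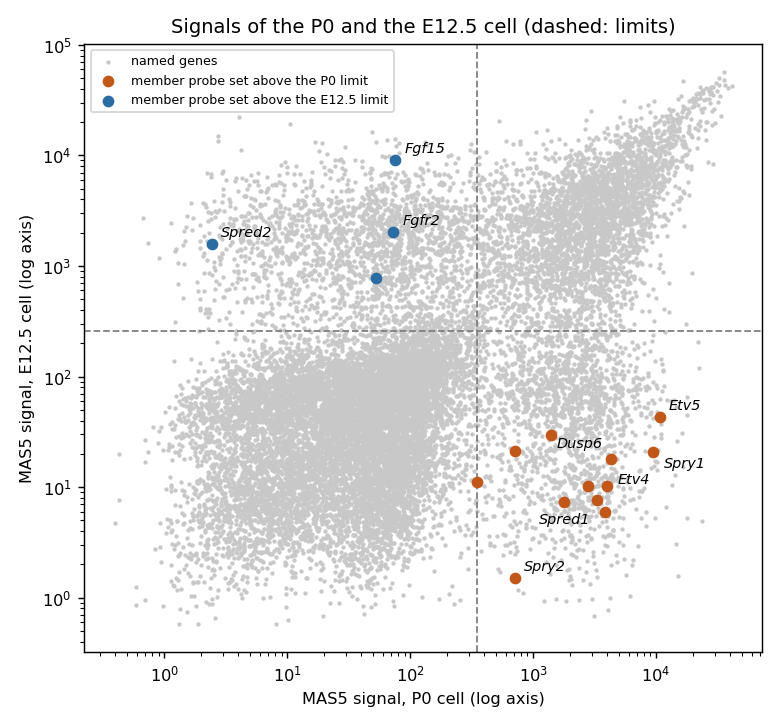
MAS5 signal at P0 against that at E12.5 (both log axes) for the 18194 named genes (grey), with the 16 probe sets of the 10 genes that were above a limit in colour; dashed lines are the limits. All 12 points above the P0 limit lie below the E12.5 limit, and all 4 above the E12.5 limit lie below the P0 limit.

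Among the 7 genes above a limit in at least 1 cell the median log2 ratio of P0 over E12.5 was 3.94, beside -0.05 over all named genes with a ratio. These 7 passed through the cell in which they were high and had to differ in that direction, so the median is a description only.

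In the rest of the pathway more genes were above the limit in both cells. Of 71 other FGF and ERK pathway genes with a probe set of 1 symbol, 25 were above the limit at P0, 26 at E12.5 and 16 in both. Those 16 are 45.7% of the 35 above it in at least 1 cell, close to the 46.7% over all genes. A total of 8 (11.3%) were called higher at P0 and 3 (4.23%) at E12.5, shares near the 9.22% and 7.30% of all named genes. The difference between the 10 genes and these lists was not tested.

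Other ligands were scarcely detected. Of 17 further FGF genes none was above the limit at P0 and, on the probe sets the rule picks, Fgf3 alone was at E12.5. Fgf3 had signals of 48.1 at P0 and 336 at E12.5, a value under the P0 limit, so that no fold is given. Fgf9 was above the limit at E12.5 on another probe set, with 4.27 at P0 and 549 at E12.5 and no call, while the one picked by the rule had 137 at P0 and 195 at E12.5. Of 6 receptor and co-receptor genes Fgfr1 was above the limit in both cells, with 3117 at P0 and 1842 at E12.5. A second probe set of Fgfr1 had 671 at P0 and 1662 at E12.5, so that its probe sets differ in direction. Fgfr3, with 119 at P0 and 346 at E12.5, and Fgfrl1, a receptor without a kinase domain, with 335 at P0 and 789 at E12.5, were above the limit at E12.5 alone and were not called. A receptor transcript was therefore detected in both cells, Fgfr1 being shared and Fgfr2 at E12.5.

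Genes between receptor and ERK were above the limit in larger shares than the 28.3% at P0 and 30.2% at E12.5 of all named genes. Of 10 adaptor genes, 6 were above the limit in each cell and 4 in both. The exchange factor gene Sos2 was called higher at P0 (1081 at P0 and 14.8 at E12.5, at least 4.16-fold) and the ubiquitin ligase gene Cbl at E12.5 (75.3 at P0 and 2830 at E12.5, at least 8.09-fold). The other probe sets of Cbl were below both limits. The adaptor gene Grb2 had 530 at P0 and 1877 at E12.5, but a second probe set had 7181 at P0 and 3.26 at E12.5, the opposite direction. Ptpn11, a phosphatase needed for signalling to Ras, was above both limits, with 4436 at P0 and 3417 at E12.5.

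Of 8 cascade genes from Ras to the kinases below ERK, 7 were above the limit at P0 and 4 at E12.5, with 3 called higher at P0 and 0 at E12.5. Nras (6631 at P0 and 8134 at E12.5), Araf (3255 at P0 and 4870 at E12.5) and Map2k2, which encodes a MEK (1895 at P0 and 1562 at E12.5), were detected in both. Nras and Araf each had a further probe set that was called, Nras higher at E12.5 (305 at P0 and 3812 at E12.5) and Araf higher at P0 (3331 at P0 and 334 at E12.5). The scaffold genes Lamtor3 (3260 at P0 and 13.0 at E12.5) and Ksr1 (2428 at P0 and 109 at E12.5) were higher at P0, Lamtor3 by at least 12.5-fold and Ksr1 by at least 9.35-fold. The other probe sets of Ksr1 were below both limits. Braf was at least 12.1-fold higher at P0, at 3155 at P0 and 244 at E12.5. Another Braf probe set, with 69.8 at P0 and 1152 at E12.5, ran the other way.

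Of 15 other feedback genes, 4 were above the limit at P0 and 5 at E12.5. Nf1, which encodes neurofibromin, was at least 9.60-fold higher at P0 (2493 at P0 and 79.1 at E12.5). Dusp16, a phosphatase of stress-activated kinases, was at least 6.14-fold higher at E12.5 (7.83 at P0 and 2145 at E12.5). Its other probe set was below both limits. Il17rd, also called Sef, an inhibitor of FGF receptor signalling, had 7.93 at P0 and 1370 at E12.5, at least 3.92-fold higher there and just short of a call. Dusp1 was above both limits, with 9104 at P0 and 2767 at E12.5. The further Sprouty and Spred genes Spry3 and Spred3 were below the limit in both cells, as were Dusp4, Dusp5, Dusp7 and Dusp9.

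Of 15 other ERK-responsive transcription genes, 7 were above the limit in each cell and 4 in both, with 3 called higher at P0 and 1 at E12.5. Ier3, an early response gene, was at least 51.9-fold higher at P0 (13469 at P0 and 10.6 at E12.5). The ETS factor genes Elk3 (2647 at P0 and 13.1 at E12.5, at least 10.2-fold) and Elk4 (1523 at P0 and 322 at E12.5, 4.73-fold) were higher at P0 on 1 probe set each. Ccnd1, which encodes cyclin D1, was at least 32.0-fold higher at E12.5 (309 at P0 and 11180 at E12.5), and all 3 of its probe sets were called that way. ERK-responsive genes were therefore called on both sides.

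Of the immediate early genes that ERK can induce, Fos, Egr1 and Myc were detected in both cells. Fos had signals of 6292 at P0 and 5535 at E12.5, Egr1 had 5198 at P0 and 2786 at E12.5, and Myc had 2505 at P0 and 1786 at E12.5. None of these 3 differed by 4-fold. Junb was above the limit at P0 alone (415 at P0 and 37.4 at E12.5) and Ier2 at E12.5 alone (109 at P0 and 564 at E12.5), and neither was called. Tissue dissociation is known to induce Fos and Egr1 as well, and its part in these signals was not tested.

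**Figure D3:**
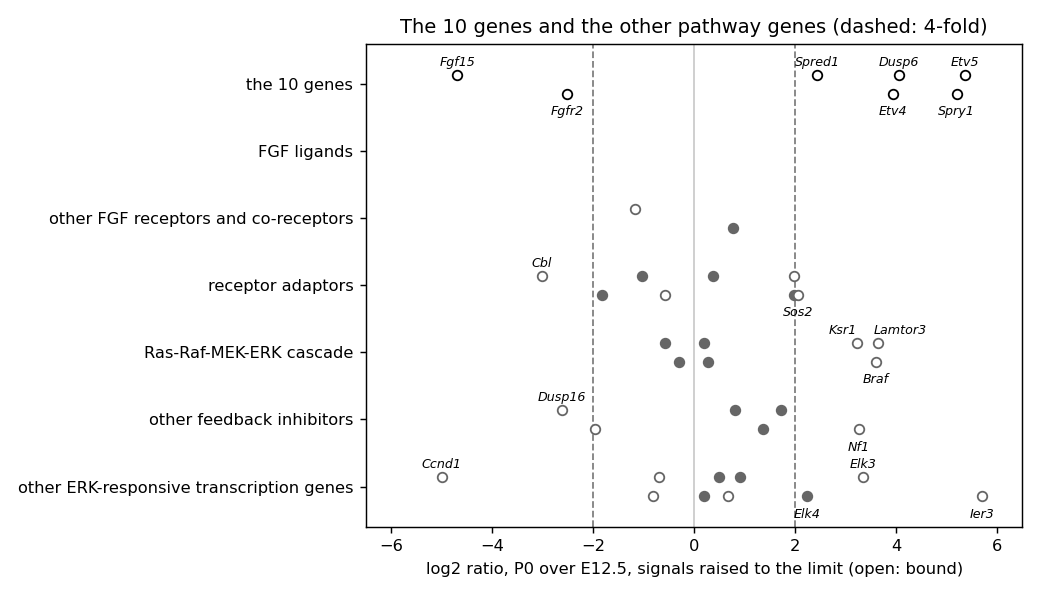
Log2 ratio of P0 over E12.5, each signal raised to its array's limit, for the 7 of the 10 genes and the other pathway genes that have a ratio; open points are bounds, dashed lines mark 4-fold, and genes past them are named. The 7 genes all lie beyond 4-fold, while most points of the other lists lie within it.

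The labelled cell type was checked against marker genes. Of 18 ciliary margin and ciliary body genes, 10 were above the limit at P0 and 9 at E12.5, and Msx1, Msx2, Bmp4, Mitf, Wls and Wnt2b were above it in neither. Bmp7, Optc and Cp were called higher at P0 (3 of 18), and Otx1, Wfdc1, Cdon and Mecom at E12.5 (4 of 18). Retinal progenitor genes were above the limit for 9 of 9 at P0 and 8 of 9 at E12.5, but their levels differed. Pax6 (1059 at P0 and 16321 at E12.5, 15.4-fold), Hes1 (480 at P0 and 4140 at E12.5, 8.63-fold) and Sfrp2 (532 at P0 and 20415 at E12.5, 38.4-fold) were called higher at E12.5, the cell in which Fgf15 was detected. Lhx2 (16759 at P0 and 2303 at E12.5, 7.28-fold) and Nr2e1 (3365 at P0 and 60.6 at E12.5, at least 13.0-fold) were called higher at P0. The part of these differences in the signals of the 10 genes was not tested. Photoreceptor genes were above the limit for 0 of 7 in both cells. Because the submitters assigned the cells from their expression, these counts are not independent of the label.

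Some markers of other cell types also differed between the cells, and not all in the same direction. Of 9 Müller glial and astroglial genes, 7 were above the limit at P0 and 3 at E12.5, with summed signals of 47722 at P0 and 13424 at E12.5. Glul, above both limits, ran against that sum, with 5024 at P0 and 8569 at E12.5. Of 7 mesenchymal genes, Col1a2 and Pdgfra were above it at P0 and none at E12.5, with sums of 6015 at P0 and 382 at E12.5, and Col1a1 and Col3a1 were below it in both. Of 7 vascular genes Rgs5 alone was above it, at P0, and of 10 lens genes Cryba2 alone, at E12.5. Gap43 and Tubb3, of 9 genes of ganglion cells and young neurons, were above it at E12.5, and none of 4 blood genes was in either. Their part in the differences of the 10 genes was not tested.

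The direction of each called gene was the same under every alternative that gave a value for it. Where a limit is used, a gene above it in 1 cell alone can only have a ratio towards that cell. All alternatives also reuse the same 2 arrays, so the unchanged direction is a description only. Fgf15 ran between log2 ratios of -6.90 and -4.58, Fgfr2 between -4.79 and -2.53, Spry1 between 4.33 and 8.85, and Dusp6 between 3.18 and 7.91. Etv5 ran between 2.92 and 7.96. The call of Etv4 was lost in 1 alternative, the mean over probe sets (0.85), and that of Spred1 in 2, the mean over probe sets (1.39) and the scaling to spike-ins (1.57). With that scaling 33.0% of all called genes lay on the P0 side, in place of 55.8%. Fgfr2 was below both limits with the mean over probe sets and had no ratio there.

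**Figure D4:**
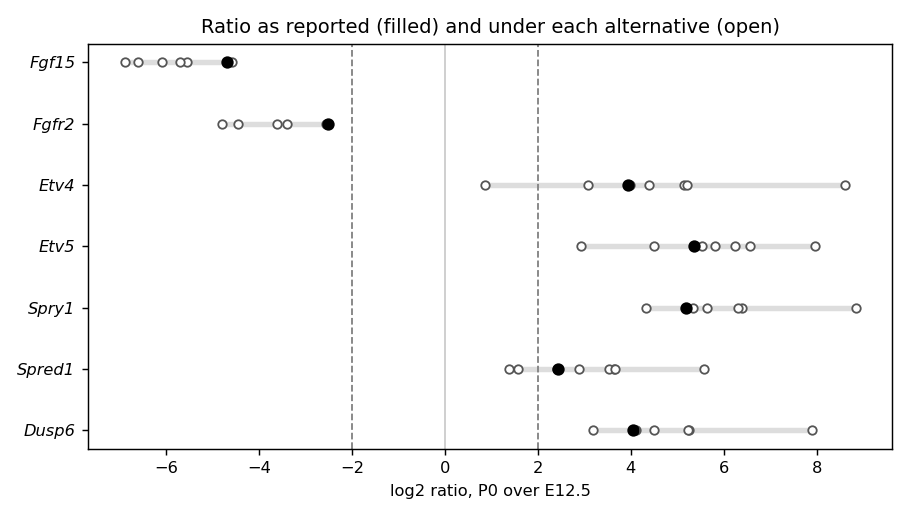
Log2 ratio of P0 over E12.5 for the 7 of the 10 genes that have a ratio, as reported (filled) and under each alternative setting (open); dashed lines mark 4-fold. Fgf15 and Fgfr2 stay negative and the other 5 positive, and open points inside the dashed lines belong to Etv4 and Spred1.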

How the data were processed

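The authors deposited 1 linear signal intensity per probe set and cell, made with MAS5, per the submitters' processing notes and the design text; settings and version: not given in the sources used here. The values show the scaling, since the mean over probe sets without 2% at each end was 500.0 in both arrays. Detection calls, scanner files and replicates were not used here, and the number of arrays limits the precision. Of 45101 probe sets, 34958 had 1 gene symbol in the platform annotation, 932 several and 9211 were not listed; 34754 symbols were taken by gene identifier from RefSeq (GRCm38.p6). No build is named for the signals.

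From these values Python 3.11.15 with pandas 2.3.3 computed limits, ratios and calls. The calls were tested on data simulated from the E12.5 array, with known changes in bright genes and no loss of transcripts. That checks the code and not the error between 2 single cells. For a gene with several probe sets, that with the highest mean of log2 signals was used. With 1 cell per age no test was run. The 10 genes, the pathway and marker lists and the rules were chosen with earlier results of these data known. Named were the 10 genes and, of each list, up to 6 genes by size of ratio; further ones (Fgfr1, Fgf3, Nras, Fos, Myc and the like) were named after their values were seen. Alternatives changed the limit, scaling, normalisation, probe set choice, fold, pseudocount and filter. Some pathway genes are not reported here.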

Additional observations from a re-analysis of the deposited data

How the results depend on the processing

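The counts of the 10 genes stayed within a factor of 1.5 under all alternatives but the mean over probe sets, where 3 genes were called higher in the P0 cell, 1 gene was called higher in the E12.5 cell and 1 was above the E12.5 limit. The median log2 ratio covers the genes of the 10 that have a ratio, whose number differs. Over 7 genes it was 3.94 as reported, 5.14 with limits at the 95th percentile and 3.07 when scaled to the hybridisation spike-ins. Over 6 it was 2.15 with the mean over probe sets, and over all 10 it was 1.84 with log2(signal + 100) and 2.93 with no limit. Genes called higher in the P0 and in the E12.5 cell numbered 1677 and 1328 as reported, 1041 and 2115 with spike-in scaling, 859 and 700 with the mean over probe sets, 3924 and 4115 with no limit, 1999 and 2009 with the 95th percentile, and 2474 and 2279 with 2-fold. Spike-in scaling moved the median log2 ratio of genes above both limits to -0.87 in place of 0.0014, and the share of calls on the P0 side to 33.0% in place of 55.8%. The cause of these shifts was not tested. No paired analysis was possible because each age has 1 cell, so no replicate could be left out either. Spry2, Spry4 and Spred2 have no ratio as reported, both signals being below the limits, and signal over background limits what can be said of them.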
